A study of Arabidopsis thaliana with 20 samples.

Results

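The region described here is a block of Arabidopsis thaliana chromosome 2 that starts at 3.2 Mb and is 450 kb long (build TAIR10), in which a nuclear copy of mitochondrial DNA lies. Its members are the rows of 6 deposited lists of annotated ChIP-seq peaks that lie wholly inside those bounds, 1652 of 13643 rows in all. Among the rows of the lists they were chosen by position, without use of fold or q. Every row is a called peak, and the block was chosen with earlier results of these data known. All plants were 2-week-old whole seedlings of the line pHSFA1d::HSFA1d-GFP in a mixed Col-0 and Ws background. In this line the HSFA1d promoter drives a fusion of HSFA1d to GFP, which was pulled down from cross-linked nuclei with an antibody against GFP. Seedlings were grown at 22 °C in constant light, about 60 to a sample. HS seedlings spent 30 min at 37 °C and HT0 seedlings are their untreated time 0, with 3 ChIP and 3 input samples each. WT0 is the untreated time 0 of the wounding series, and W10min, W3h and W24h were taken 10 min, 3 h and 24 h after several razor blade cuts, with 1 ChIP and 1 input sample each. Of the 20 samples, 10 are ChIP and 10 are input. Reads of a condition were concatenated before its 1 list was made, and the wounding conditions have no replicates. Replicate spread is therefore unknown, and conditions could not be tested against each other. Per the labels, libraries were read as 50-base single reads to a floor of 10 M mapped reads, and the depth is otherwise unknown. The heat lists pool 3 ChIP samples and the wounding lists hold 1, which cannot be told apart from any difference between the 2 heat and the 4 wounding lists.

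HSFA1d is a class A1 heat shock factor, a transcription factor that is activated by protein misfolding and switches on chaperone genes. Mitochondria keep a small genome of their own, with genes for subunits of the respiratory chain and ATP synthase, for ribosomal proteins and for tRNAs. Plant nuclear genomes hold inserted copies of organelle DNA, and Arabidopsis carries a large copy of the mitochondrial genome near the centromere of chromosome 2. Where such a copy is nearly identical to its source, a short read can match both places, and seedlings hold many mitochondrial genomes per cell. The 6 lists hold 0 rows on any sequence other than chromosomes 1 to 5, and how reads with more than 1 placement were handled is not given in the sources used here. Whether reads placed in the block came from the nuclear copy or from mitochondria cannot be told apart in these lists.

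That the block holds such a copy was checked against the gene table of the TAIR10.1 assembly, in which sets of neighbouring block genes were compared with mitochondrial genes by length and spacing, a check chosen after seeing the data. The comparison held 218 block genes and 284 mitochondrial genes. There were 4 sets of at least 3 genes with identical lengths and identical spacing, 17 of the 218 block genes in all. Among 37669 other nuclear genes the largest such set held 2 genes. One locus, AT2G07741, had the length (1158 bp) and spacing of mitochondrial atp6, which encodes a membrane subunit of ATP synthase. AT2G07751 matched nad3 (357 bp), a subunit of respiratory complex I, and AT2G07675 matched rps12 (378 bp), a protein of the small ribosomal subunit. The other 14 matched tRNA genes. All 17 were named in all 6 lists, as were 132 of the 134 loci named in the block. This is a match of length and spacing, not of sequence.

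The block held 390 of 3848 rows in HS (10.1%) and 376 of 1967 in HT0 (19.1%). In the wounding series it held 221 of 2859 rows for WT0 (7.73%), 221 of 2926 for W10min (7.55%), 219 of 1185 for W3h (18.5%) and 225 of 858 for W24h (26.2%). The number of rows thus stayed between 219 and 225 in the 4 wounding lists while the lists themselves ran from 858 to 2926 rows. A peak that spans several annotated features is split over rows, so overlapping or adjoining rows (up to 1 base apart) that carried 1 fold and 1 q were merged into pieces. There were 191 pieces in HS and 180 in HT0. WT0 had 69, W10min 69, W3h 67 and W24h 72.

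Covered length hardly differed between lists. Rows covered 202 kb of the 450 kb in HS and 205 kb in HT0. They covered 212 kb for WT0, 213 kb for W10min, 213 kb for W3h and 214 kb for W24h, so every list covered between 44.9% and 47.5% of the block. Since bases outside annotated features cannot appear in these lists, the covered length is a lower limit. The same bases were 33.0% of everything the HS list covers and 51.4% of the HT0 list. They were 36.8% of the WT0 list, 36.3% of W10min, 57.7% of W3h and 64.3% of W24h. On chromosome 2 alone, the block held from 35.3% of rows (W10min) to 64.5% (W24h).

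The rows fell into 5 stretches, separated by more than 10 kb without a row. A rowless gap just over 10 kb inside the second was kept, since 1 region of the wounding lists (defined below) spans it. That definition was chosen after seeing the data, and without it the second stretch would be split. The first, from 3227391 to 3229135, lies in AT2G07660, a transposable element gene with 2 rows in every list. The second and by far the longest ran over 268 kb, from 3239657 to 3507323, and held 129 of the 134 loci named in the block. The third, from 3549520 to 3550854, lies in the transposable element gene AT2G07789. The fourth, from 3611985 to 3626460, holds the protein-coding loci AT2G07981 and AT2G08986, and the fifth, from 3643221 to 3645163, lies in the transposable element gene AT2G09187. Rowless gaps of 10.5, 42.2, 61.1 and 16.8 kb lay between them in order along the chromosome.

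Both edges of the long stretch were identical to the base in all 6 lists. Its first base was always 3239657, the first base of AT2G07742, annotated as a tRNA gene, and its last was always 3507323, the last base of the pseudogene AT2G07670. Because rows end where an annotated feature ends, these positions are feature boundaries and the ends of the signal may lie farther out. The fold given for a locus, here and below, is the highest of its rows, promoter rows included. AT2G07742 had a fold of 2.02 for HS and 2.13 for HT0, and of 4.00 for WT0, 4.39 for W10min, 3.61 for W3h and 4.45 for W24h. AT2G07670 had 2.12 for HS and 2.87 for HT0, and 3.41 for WT0, 4.57 for W10min, 3.12 for W3h and 3.51 for W24h. AT2G07670 thus had the highest fold of the block in HT0, and lay in the region with the lowest fold of the long stretch in W24h.

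Beyond the outermost members, no row crossed either bound. To the left the nearest row lay 38.3 kb from the first member in HS and 38.2 kb in HT0, both over the pseudogene AT2G07600 with folds of 3.04 and 3.19. It lay 639 kb away in WT0 and W10min, over the protein-coding gene AT2G06520, and 139 kb away in W3h and W24h, over the transposable element gene AT2G07420. To the right the nearest rows named 5 different transposable element genes in all, AT2G09930 at 122 kb for HS, AT2G10160 at 206 kb for HT0, AT2G10600 at 504 kb for WT0, AT2G10280 at 326 kb for W10min and W3h, and AT2G10240 at 272 kb for W24h. Between the right edge of the long stretch and AT2G07981 the gene table lists 23 genes, 6 of them protein-coding. Only AT2G07789 of these was named by a row. ABCC13, of the ABC transporter C subfamily, and MCM5, a subunit of the replicative helicase, were among those named in no list.

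In bins of 10 kb, 28 of 45 were covered for 10% or more by each of the 6 lists. The longest run of such bins went from 3.33 to 3.51 Mb, and 10 called bins lay outside it. In bins of 25 kb the run went from 3.225 to 3.525 Mb, with 1 called bin outside it. A gap of about 10 kb inside the long stretch, in which no list has a row, splits the run in the narrower bins.

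Within the long stretch, rows of 1 feature were mostly contiguous. The spans between the outermost rows of each named feature, taken over the 6 lists, together take up 204 kb, with shared bases counted once. Genes named by no row are left out of this length, so a high share is in part set by its definition. HS covered 92.9% of this length and HT0 93.8%. WT0 covered 98.9%, W10min 99.0%, W3h 98.9% and W24h 98.9%. The remainder was cut up differently, into 134 gaps for HS (median 104 bp) and 123 for HT0 (median 98 bp), against 11 for WT0, 8 for W10min, 11 for W3h and 11 for W24h.

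A few gaps recurred. Uncovered in every list were 11 intervals inside annotated features, 1784 bp together and 5 of them longer than 100 bp. The longest was 339 bp at 3482725 to 3483063, in the promoters of AT2G07775 and AT2G07806, and the gap around it measured 353 bp for HS, 347 for HT0, 359 for WT0, 339 for W10min, 360 for W3h and 358 for W24h. Another, 297 bp at 3402404 to 3402700, lay inside AT2G07712, and one of 177 bp at 3392785 to 3392961 lay inside AT2G07709. Each of the 8 gaps of W10min, and 8 of 11 gaps in each of WT0, W3h and W24h, contained bases uncovered in every list. In HS 11 of 134 gaps did, and in HT0 10 of 123.

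The named loci were 65 protein-coding genes, 27 pseudogenes, 23 tRNA genes and 19 transposable element genes. Of the 134 loci, 132 were named in all 6 lists, and the exceptions were AT2G07789 and AT2G09187. No locus was named in 1 list only. Each of the 65 protein-coding genes had promoter rows as well as rows over the gene itself. All 134 were found in the gene table, but only AT2G07771 (ABCI5) and AT2G07681 (ABCI4), symbols of the ABC transporter I subfamily, carried a symbol of their own. ABCI5 had a fold of 2.05 for HS and 2.53 for HT0, and of 4.00 for WT0, 4.39 for W10min, 3.61 for W3h and 4.45 for W24h. Its values for HS and HT0 came from the promoter, and the gene itself had 2.02 and 2.13. ABCI4 had 1.99 for HS and 2.16 for HT0, and 3.91 for WT0, 6.10 for W10min, 3.51 for W3h and 3.79 for W24h. Here too the values for HS and HT0 came from the promoter, and the gene itself reached 1.97 and 2.02. ABCI4 lay in the region with the highest fold of the W10min block, and in the other lists its fold was below the highest of the block.

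Most pseudogene and tRNA rows of each list lay in the block. It held 83.3% of all pseudogene rows for HS, 81.7% for HT0, 96.7% for WT0, 80.6% for W10min, 87.9% for W3h and 90.6% for W24h. Of tRNA rows it held 74.2% for HS and 88.5% for HT0, and 71.9% for WT0, 62.2% for W10min, 82.1% for W3h and 88.5% for W24h, with 23 rows in each list. Promoter rows made up 46.2% of the block's rows in HS, against 62.5% in the rest of that list. In WT0, where the contrast was widest, they made up 35.3% of the block and 70.2% of the rest. The shares were 46.3% and 54.3% for HT0, 35.3% and 68.1% for W10min, 35.6% and 59.6% for W3h, and 35.1% and 42.7% for W24h. Promoter and other rows overlap each other in part. No block row was an rRNA, snRNA, miRNA or other RNA gene. As no test was run, these shares describe the lists and no more.

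Within the long stretch the rows named features of several kinds. Of the 185 genes the table places there, 129 were named. By the table's own biotypes these were 63 of 94 protein-coding genes, 21 of 23 tRNA genes, all 18 pseudogenes and all 27 transcribed pseudogenes. These biotypes differ from the classes of the lists counted above. The table's pseudogenes are loci listed as transposable element genes, plus AT2G07742 and AT2G07778, which are listed as tRNA genes. Its transcribed pseudogenes are the loci listed as pseudogenes. The 7 lncRNA and 16 other RNA genes of the table were named by none. Whether the annotation behind the lists contains the unnamed genes was not tested. Median folds by class were close to each other in each list. In HT0 they were 2.05 for promoter rows, 2.05 for coding rows, 2.07 for pseudogene rows, 2.02 for tRNA rows and 2.00 for transposable element rows. In W10min the corresponding medians were 4.57, 4.57, 4.57, 4.39 and 4.64.

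For each locus, the cover of a list was set against the span between the outermost gene rows of that locus over the 6 lists, which can be shorter or longer than the annotated gene. At least 90% of this span was covered for 97 of the 129 loci of the long stretch in HS and 103 in HT0, and for 126 in each wounding list. The lowest cover was 27.2% in HS, at the pseudogene AT2G07807, whose 114 bp span the other lists covered in full. In HT0 the lowest was 34.7%, and in the wounding lists between 75.4% and 77.4%. Of the 17 loci matched to mitochondrial genes, AT2G07764, matched to a tRNA gene, had the lowest cover, 34.7% in HS and HT0.

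Fold enrichment is the ratio of ChIP signal over background that the authors deposited for each peak, and it ranks peaks only within its own list. The median fold of block pieces was 1.90 in HS, against 1.75 in the rest of that list, and 2.04 in HT0, against 1.61. It was 3.91 for WT0 (rest 1.82), 4.39 for W10min (rest 1.96), 3.12 for W3h (rest 1.79) and 3.91 for W24h (rest 1.78). The highest block fold was 2.28 in HS and 2.87 in HT0. It was 4.44 for WT0, 6.10 for W10min, 4.04 for W3h and 4.68 for W24h. In HS 366 pieces elsewhere exceeded the block's highest fold, whereas 10 did for HT0, 3 for WT0, 7 for W10min, 5 for W3h and 1 for W24h. Of the 100 pieces with the highest folds of a list, 0 lay in the block in HS and 29 in HT0. There were 63 such pieces for WT0, 57 for W10min, 62 for W3h and 65 for W24h. Pieces of 1 region share a fold, so these counts repeat values. In WT0 the 69 block pieces formed 28 regions, while the 1414 pieces elsewhere formed 1387.

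**Figure D1:**
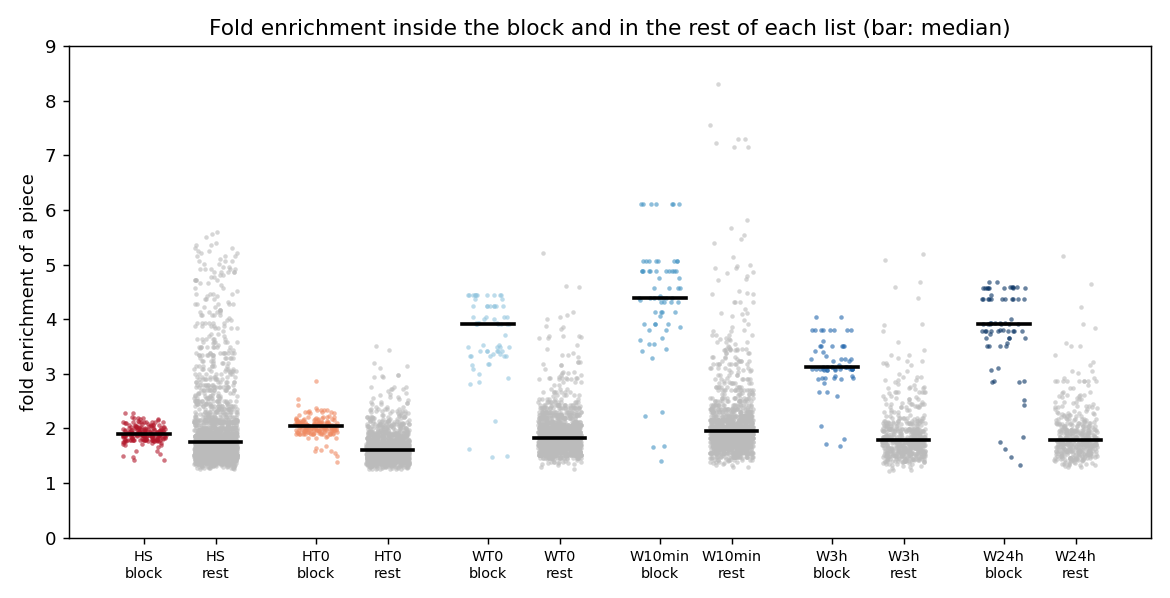
Fold enrichment (y axis, ratio) of every piece inside the block (coloured) and in the rest of the same list (grey), with 1 point per piece and a bar at the median. Pieces of 1 region share a fold, so several points can repeat 1 value. In HS the block lies within the body of the list below 366 higher pieces, while in the wounding lists its pieces sit near the top.

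The q values of block pieces were lower than those of most other pieces. The median −log10 q of block pieces was 5.87 in HS and 9.36 in HT0, with 1.22 and 1.05 in the rest of those lists. It was 64.3 for WT0, 82.4 for W10min, 55.7 for W3h and 65.6 for W24h, while the rest of these lists had medians between 1.04 and 1.60. A q of 1e-05 or less belonged to 79.1% of block pieces for HS and 95% for HT0, and to 94.2% for WT0, 94.2% for W10min, 97.0% for W3h and 93.1% for W24h. In the rest of the lists the share ran from 6.79% (WT0) to 19.1% (HS). Thus 56.3% of all HT0 pieces at that q lay in the block, and 25.7% of those in W10min. Pieces of 1 region carry the same q, so regions cut into several pieces weigh more in these shares.

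The block was broken up differently in the heat and the wounding lists. Neighbouring pieces with the same fold and q and at most 12 kb between them were taken as 1 region, a definition chosen after seeing the data. This gave 161 regions for HS and 150 for HT0, against 28 for WT0, 26 for W10min, 26 for W3h and 29 for W24h. The longest region measured 9.87 kb in HS and 11.5 kb in HT0, and 63.5 kb in each wounding list. Both heat maxima lay at AT2G07981 and AT2G08986, and in the long stretch the longest heat region was 9.56 kb in HS and HT0. At AT2G07981 and AT2G08986 the order was reversed, with 7 regions for HS and 6 for HT0. WT0 had 10 regions there, W10min 9, W3h 8 and W24h 10. In each wounding list 8 regions exceeded 10 kb, in HT0 1 did and in HS 0. Outside the block the longest region of any list was 12.1 kb (WT0).

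**Figure D2:**
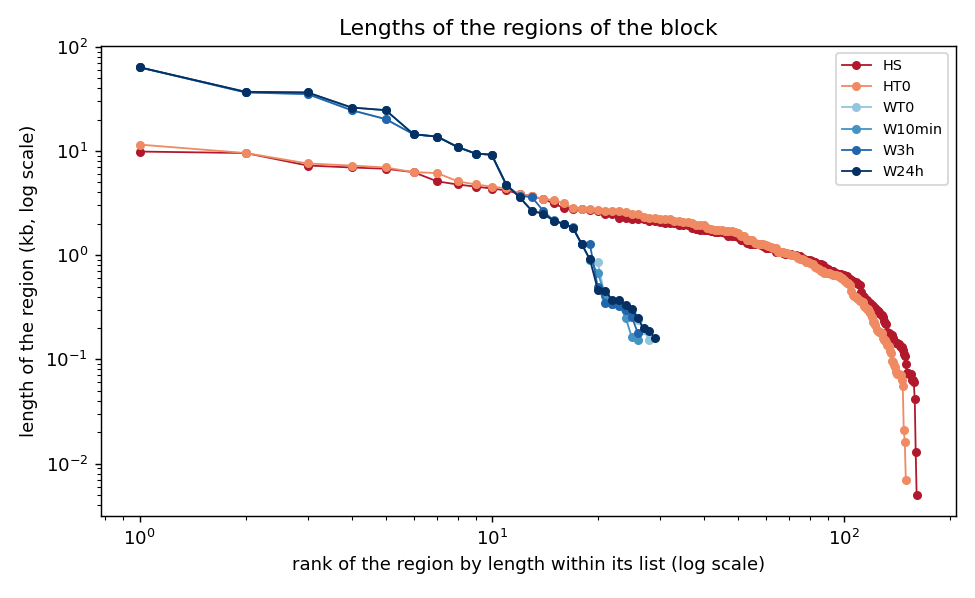
Length of each block region (y axis, kb, log scale) against its rank by length within its list (x axis, log scale), 1 line per list. The 4 wounding lists run almost on top of each other, from 63.5 kb downward, and the 2 heat lists follow a flatter line with more and shorter regions.

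Most region ends lay close together between wounding lists. Of the 28 WT0 regions, 22 had a single partner in each of the other 3 lists under reciprocal overlap of 50%, and 36 of their 44 ends lay within 20 bp in all 4 lists. The largest shift of an end was 5892 bp. Since rows end where a feature ends, some ends are feature boundaries and coincide for that reason alone. The longest, from 3303029 to 3366557, had folds of 4.44 for WT0, 4.89 for W10min, 3.09 for W3h and 4.37 for W24h, and 27 HS and 27 HT0 regions lay along it. It is joined across the gap of about 10 kb in which no list has a row. The next, from 3402714 to 3439161, had 4.25, 5.06, 3.80 and 4.57 in the same order. From 3262235 to 3297403 the folds were 3.91, 6.10, 3.51 and 3.79, and from 3244633 to 3258372 they were 4.38, 4.75, 4.04 and 4.68. The region with the highest fold therefore differed, being the 63.5 kb region for WT0, the region that contains ABCI4 for W10min, and the region from 3244633 for W3h and W24h.

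Because 1 fold is shared by a whole region, the loci with the highest fold come in groups in the wounding lists. In WT0 30 loci shared 4.44, the first along the chromosome being AT2G07772, AT2G07683 and AT2G07752. In W10min 19 shared 6.10, beginning with AT2G07664, AT2G07684 and AT2G07673. In W3h 10 loci shared 4.04, and in W24h 10 shared 4.68, both beginning with AT2G07773, AT2G07749 and AT2G07747. In the heat lists the highest fold belonged to 1 locus. HS was led by AT2G07728 (2.28), AT2G07741 (2.28) and 4 loci at 2.20 that began with AT2G07692. HT0 was led by AT2G07670 (2.87), AT2G07771 and AT2G07773 (2.53 each). The 2.28 of AT2G07741 came from its promoter, and the gene itself had 2.12 in HS. The 2.53 was 1 piece of 161 bp in the promoters of AT2G07771 and AT2G07773, and both genes themselves had 2.13 in HT0. AT2G07741, the locus with the length of atp6, had 2.37 for HT0, and 3.41 for WT0, 4.57 for W10min, 3.12 for W3h and 3.51 for W24h.

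Along the block, fold varied by at most 1.69 times between bins of 25 kb that every list covered for at least 10%. Bins with less cover were left out, and some had lower folds. Among them were 3550001 to 3575000 in W10min (2.23) and 3525001 to 3550000 in W24h (1.85). Over the 13 bins of 25 kb that every list covered for at least 10%, the median fold over covered bases of the highest bin was 1.19 times that of the lowest in HS and 1.25 times in HT0. It was 1.48 times for WT0, 1.69 for W10min, 1.52 for W3h and 1.63 for W24h. Of these 13 bins the lowest was the same in all 6 lists, 3600001 to 3625000, which holds AT2G07981 and most of AT2G08986. Its median was 1.78 for HS, 1.89 for HT0, 3.00 for WT0, 3.62 for W10min, 2.66 for W3h and 2.86 for W24h. The highest bin was 3500001 to 3525000 in both HS (2.12) and HT0 (2.37). Elsewhere it was 3300001 to 3325000 for WT0 (4.44), 3250001 to 3275000 for W10min (6.10), and 3225001 to 3250000 for W3h (4.04) and W24h (4.68). Across the 28 bins of 10 kb, Spearman's rho between bin medians was 0.50 for HS with HT0, 0.71 for W24h with WT0 and 0.51 for W10min with WT0, but 0.15 for W3h with WT0. Between a heat and a wounding list it ran from -0.01 (HS with W10min) to 0.25 (HT0 with W10min). Neighbouring bins share regions, so these are descriptions of the lists.

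The 4 stretches outside the long one were weaker or less regular. AT2G07660 reached 1.94 for HS and 1.59 for HT0, and 2.13 for WT0, 2.30 for W10min, 2.04 for W3h and 3.08 for W24h. Its rows covered between 277 and 571 bp in a list, and its −log10 q was at most 3.95 except in W24h, with 9.43. AT2G07981 had folds of 1.78 for HS and 1.98 for HT0, and 3.71 for WT0, 4.05 for W10min, 3.33 for W3h and 3.57 for W24h. AT2G08986, an 8403 bp gene, had 1.85 in HS and 1.89 in HT0, and 4.01, 4.43, 3.40 and 3.92 in WT0, W10min, W3h and W24h. Over both loci HS covered 11.6 kb and HT0 12.5 kb, against 9.79 kb for WT0, 10.5 kb for W10min, 10.5 kb for W3h and 10.5 kb for W24h. Here the heat lists covered more than the wounding lists, the opposite of the long stretch, where HS covered 189.5 kb and HT0 191 kb, against 202 kb in each wounding list.

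Agreement between HS and HT0 inside the block was close to complete. Of the 191 HS pieces, 189 met an HT0 piece by at least 1 bp, against 33.0% of pieces over the whole HS list and 26.4% of those outside the block. In the other direction 176 of 180 HT0 pieces met an HS piece, against 49.6% over the whole HT0 list. Shared bases were 99.8% of the HS cover and 98.5% of the HT0 cover. Block pieces were longer than others, with a median of 727 bp in HS and 722 bp in HT0, against 132 and 118 bp in the rest of those lists. A longer piece meets others more easily, and the part of length in these shares was not tested.

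The same held for each time after wounding set against WT0. In W10min 68 of 69 pieces met a WT0 piece, against 35.7% over the whole W10min list, and 69 of 69 WT0 pieces met one of W10min, against 35.1% of the WT0 list. In W3h 67 of 67 did, against 52.2%, and 69 of 69 WT0 pieces met one of W3h, against 22.1%. In W24h 68 of 72 did, against 44.2%, and 69 of 69 WT0 pieces met one of W24h, against 15.3%. These 3 comparisons share WT0. Median piece lengths were 1777 bp for W10min, 1829 bp for W3h, 1614 bp for W24h and 1761 bp for WT0, and between 214 and 227 bp in the rest of these lists.

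**Figure D3:**
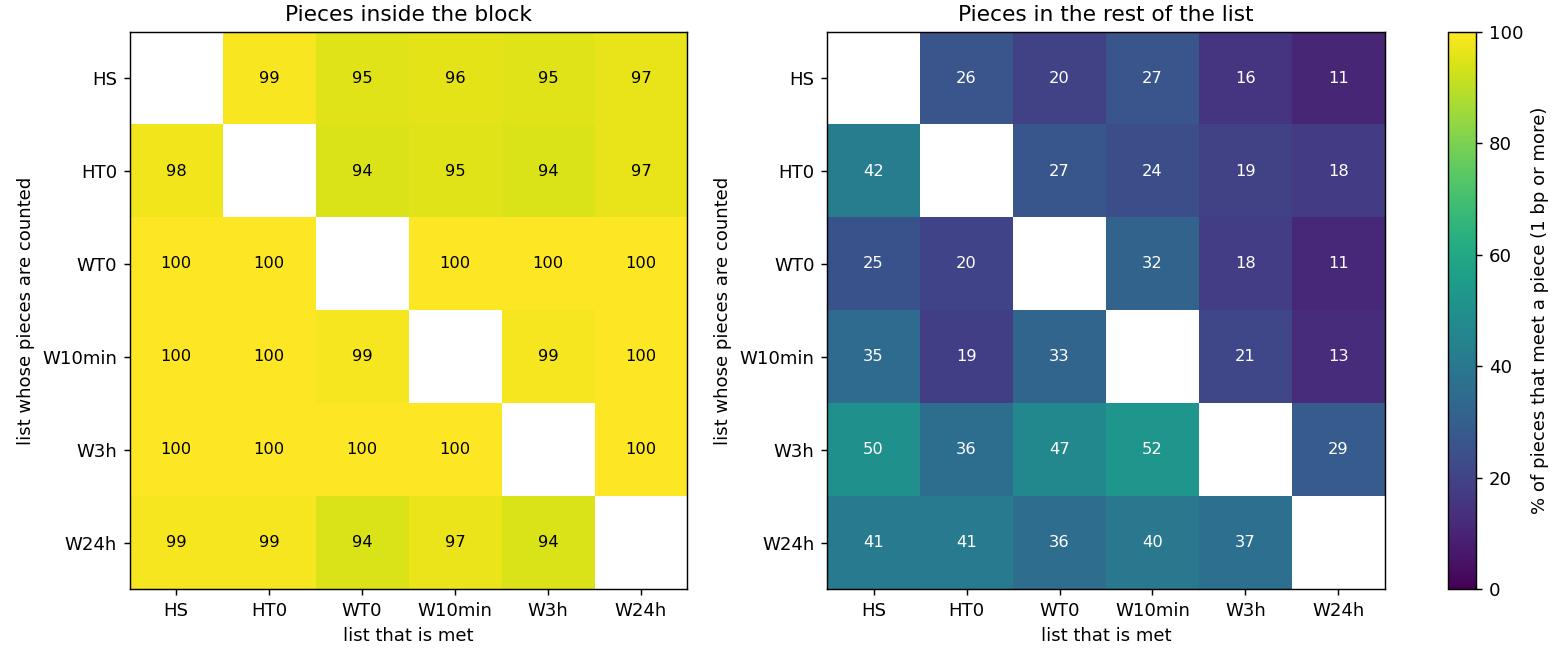
Percent of the pieces of a list (rows) that meet a piece of another list (columns) by at least 1 bp, inside the block (left panel) and in the rest of the lists (right panel). Inside the block all 30 shares lie between 94.4% and 100%, and in the rest between 10.7% and 52.4%.

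Together 11 pieces of these comparisons met no partner, and all but 2 lay outside the long stretch. In HS they were AT2G09187 (1.80-fold, q 0.0311) and a piece of 63 bp at AT2G07738 and AT2G07795 (1.77-fold). In HT0 they were AT2G09187 (1.5-fold, q 0.34), AT2G07789 (1.83-fold), AT2G07981 (1.82-fold) and a piece at AT2G07714 and AT2G07715 (1.64-fold). W10min had a piece at AT2G07789 (2.23-fold, q 3.10e-05). W24h had 2 pieces at AT2G07789 (1.85-fold and 2.42-fold, q 0.0119 and 5.70e-07), 1 at AT2G09187 (2.51-fold, q 8.22e-06) and 1 at AT2G07981 and AT2G08986 (1.33-fold). In both HS and HT0 a piece at AT2G09187 was listed, but the 2 did not overlap.

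Over all 15 pairs of lists, shared bases were between 93.4% and 99.97% of the cover of either list in the block. Cover in every list is confined to annotated features, and the same share outside the block was not computed. Any of the 6 lists covered 217 kb of the block and all 6 covered 199 kb, or 91.7% of it. Exactly 1 list covered 1392 bp and exactly 5 covered 2672 bp. The largest set below 6 was 11247 bp covered in exactly 4 lists. In the long stretch, bases covered in all 6 lists were 93.5% of those covered in any, and at AT2G07981 and AT2G08986 they were 73.2%.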

How the data were processed

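Bowtie2, SAMtools and MACS2 were used with build TAIR10, per the submitters' processing notes, without versions. Per the labels, reads were concatenated, which gave 1 peak list per condition. Per the file headers, the authors deposited a fold enrichment (a ratio) and a −log10 q-value for each row. A filter on q is not given in the labels. Starts count from 0: after adding 1, 85 of 351 gene rows of the block equal a start of the gene table, against 1 as given. Positions are printed counting from 1. No column of another sample's values was found in these tables.

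Rows were joined into pieces and regions, covered bases were counted, and pieces met when they shared at least 1 bp. The steps were tested on simulated data. With 1 pooled list per condition no test was run, and depth allows no interval. Gene names, biotypes and neighbour order were read from RefSeq's TAIR10.1 gene table, whose coordinates are not printed. Named loci are those at the edges, the 3 with the highest fold in each list, the nearest outside and, chosen after their values were seen, those in recurrent gaps, unmatched pieces or matched to mitochondrial genes. The planned choice and grouping by product keywords and the motif count were not run, since product names and sequence were not used here. The members and lists were chosen with earlier results of these data known. Alternatives changed the joining, the q, the row classes, the overlap rule, the bins and the lists used. Python 3.11.15, pandas 2.3.3, numpy 2.4.6, scipy 1.17.1 and matplotlib 3.10.9 were used.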

Additional observations from a re-analysis of the deposited data

How the results depend on the processing

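Over 31 results and 134 alternatives, 104 values stayed close to the reported one and 30 moved. Reversals were not looked for. Counts and lengths were held to 1.5 times, median folds to the quartiles of the pieces and shares to the exact 95% binomial interval. That interval treats pieces as independent, although several can come from 1 region, and it served only as a tolerance. Without joining, the distinct intervals numbered 369 in HS, 360 in HT0, 221 for WT0, 221 for W10min, 219 for W3h and 224 for W24h. As regions, chosen after seeing the data, WT0 had 28, W10min 26, W3h 26 and W24h 29, with median folds of 3.34 for WT0, 3.88 for W10min and 3.57 for W24h. Promoter rows alone covered 129817 bp in HS, 131720 in HT0, 137078 for WT0, 137667 for W10min, 137279 for W3h and 137593 for W24h, and other rows 127189, 128694, 132775, 133590, 133324 and 134141 bp in the same order. With promoter rows only, 65 genes were named in all 6 lists. Reciprocal overlap of 50% left 90.1% of HS pieces meeting HT0 and midpoints within 200 bp left 88.0%; at a q of at most 1e-05 in both it was 100%. In bins of 25 kb the longest run was 300 kb, against 180 kb. Leaving out any list gave 198722 to 200826 bp covered in all the others. No paired analysis was possible, because HS and HT0 each pool 3 ChIP samples and each wounding list holds 1. No result comes from a test. Depth beyond the stated floor is unknown, and unannotated bases are not listed.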
